A study of Mus musculus with 4 samples.

Results

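The regions described here are the peaks of histone H3 phosphorylated at serine 10 (H3S10ph) that touched the promoter of a protein-coding gene in mouse gastrocnemius. A promoter was taken as the stretch from 1 kb before to 1 kb after an annotated transcription start site of an autosomal protein-coding gene (mm10, GENCODE M21), and peaks of at most 2000 bp were kept. By this rule 6356 of the 93418 peaks in 4 peak lists were promoter peaks. The muscles came from male C57BL/6 mice of 5 months. In the stimulated group the gastrocnemius performed 50 eccentric contractions, forced lengthenings of the active muscle, with a tetanus of 600 ms at 100 Hz every 30 s under xylazine and Zoletil anaesthesia, and was taken immediately afterwards. The unstimulated group was the contralateral gastrocnemius of the same mice, which shared the anaesthesia. For stimulation the paper also describes surgery, with the sciatic nerve exposed, wires sutured beside it and the common peroneal nerve cut. Whether the contralateral leg was operated on is not stated, so effects of surgery and of contraction cannot be told apart. Each group had 2 samples, each a pool of muscles from 6 mice, so that the spread between samples is a spread between pools, and nuclei of fibres and of other cells of the muscle cannot be told apart.

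H3S10ph is placed on condensed chromosomes in dividing cells and, in non-dividing cells, on a limited set of nucleosomes by kinases downstream of the MAP kinase cascade, such as MSK1. In the latter setting it is best known at the promoters and bodies of immediate early genes, which respond to a stimulus without new protein synthesis. Promoters of broadly expressed genes are mostly rich in CpG dinucleotides, whereas those of many tissue-restricted gene families, such as odorant receptors, are poor in them.

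The 4 lists differed in length by several fold, and the values of each list are therefore given in the order unstimulated 1, unstimulated 2, stimulated 1 and stimulated 2. They held 9094, 32740, 10901 and 40683 peaks, of which 8483, 32574, 10776 and 40408 were autosomal and at most 2000 bp wide. Unstimulated 1 stood apart from the other lists, with 502 peaks on chromosome X against 15 to 18 elsewhere, and with peaks of lower GC content, so results that rest on it are also given without it. The lists hold no read counts, and depth is unknown.

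Upstream sequences of 4 genes show the kinds of promoter that carried peaks. They are the 250 bases before the outermost annotated start of the gene, 5′ to 3′ on the strand of the gene. Capitals mark matches on either strand to the cyclic AMP response element TGACGTCA, the Sp1 box GGGCGG, the CCAAT box and the TATA box TATAAA. Jund (chr8:70698699-70698948, plus strand, mm10), which encodes an AP-1 subunit, is shown as a CpG-rich promoter with peaks in both stimulated lists only. Coil (chr11:88970002-88970251, plus strand), which encodes the Cajal body protein coilin, is shown because a peak lay at the same place in all 4 lists. Gm9758 (chr5:14914900-14915149, minus strand) and Gm17019 (chr5:15032999-15033248, minus strand) are shown as near copies of each other that fell into different classes, the former with peaks in all 4 lists and the latter with peaks in both unstimulated lists only.
Jund: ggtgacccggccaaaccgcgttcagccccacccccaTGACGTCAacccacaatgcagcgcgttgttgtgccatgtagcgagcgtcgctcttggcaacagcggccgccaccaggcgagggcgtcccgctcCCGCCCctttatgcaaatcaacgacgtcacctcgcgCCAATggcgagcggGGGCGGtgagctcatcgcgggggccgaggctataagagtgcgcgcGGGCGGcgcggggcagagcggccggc
Coil: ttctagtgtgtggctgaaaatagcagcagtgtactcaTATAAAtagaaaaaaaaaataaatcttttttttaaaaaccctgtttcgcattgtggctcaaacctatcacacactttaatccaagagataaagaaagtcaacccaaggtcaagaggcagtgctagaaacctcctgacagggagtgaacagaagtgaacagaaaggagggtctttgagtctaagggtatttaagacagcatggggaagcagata
Gm9758: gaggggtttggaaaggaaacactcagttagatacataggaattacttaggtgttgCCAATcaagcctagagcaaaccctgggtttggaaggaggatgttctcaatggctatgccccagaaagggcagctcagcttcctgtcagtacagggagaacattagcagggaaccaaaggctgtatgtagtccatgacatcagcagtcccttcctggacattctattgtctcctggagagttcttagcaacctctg
Gm17019: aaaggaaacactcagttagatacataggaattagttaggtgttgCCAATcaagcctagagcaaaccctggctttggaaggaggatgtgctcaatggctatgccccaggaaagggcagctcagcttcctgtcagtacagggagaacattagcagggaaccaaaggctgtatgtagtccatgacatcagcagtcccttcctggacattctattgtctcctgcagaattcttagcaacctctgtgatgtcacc
The printed stretches are not the marked sequence itself. Promoter peaks covered 0 bases of the Jund stretch in every list and 234, 250, 38 and 21 bases of the Coil stretch. They covered 165, 177, 219 and 250 bases for Gm9758 and 81, 168, 0 and 0 for Gm17019. The Jund stretch held 33 CpG dinucleotides, the Coil stretch held 1 and both copies on chromosome 5 held 0. The upstream stretches of Gm9758 and Gm17019 were identical at 234 of 261 aligned positions (89.7%).

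The first comparison asked whether H3S10ph peaks lay at promoters more often after eccentric contractions. Promoter peaks numbered 300, 1570, 674 and 3812. They made up 3.54% (95% Wilson interval 3.16 to 3.95), 4.82% (4.59 to 5.06), 6.25% (5.81 to 6.73) and 9.43% (9.15 to 9.72) of the autosomal peaks of each list, where the intervals cover the counting of peaks and not the spread between mice. Both stimulated lists had a higher promoter share than both unstimulated lists, whatever their length. The mean share was 4.18% ± 0.907 (SD, n = 2) in unstimulated muscle and 7.84% ± 2.25 (SD, n = 2) in stimulated muscle. The difference of 3.67 percentage points gave p = 0.333 in an exact two-sided permutation test, and 0.333 is the smallest p that 2 samples against 2 can give. Without unstimulated 1 the difference was 3.02 percentage points.

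The 90262 start sites of 20807 autosomal protein-coding genes gave windows over 94.3 Mb, or 3.93% of the autosomes outside sequence gaps. If each peak were placed with equal probability at every position of its own chromosome, 4.67%, 4.80%, 4.79% and 4.91% of peaks would touch a promoter. The ratio of observed to expected promoter peaks was 0.757, 1.00, 1.31 and 1.92. Promoters were thus touched less often than uniform placement gives in unstimulated 1, about as often in unstimulated 2 and more often in both stimulated lists. The mean ratio was 0.880 ± 0.175 (SD, n = 2) before and 1.61 ± 0.436 (SD, n = 2) after contraction, a difference of 0.73 (p = 0.333, exact permutation test). The order held on 16 of 19 autosomes, where both stimulated lists lay above both unstimulated lists, and stimulated 2 exceeded unstimulated 2 on all 19.

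**Figure D1:**
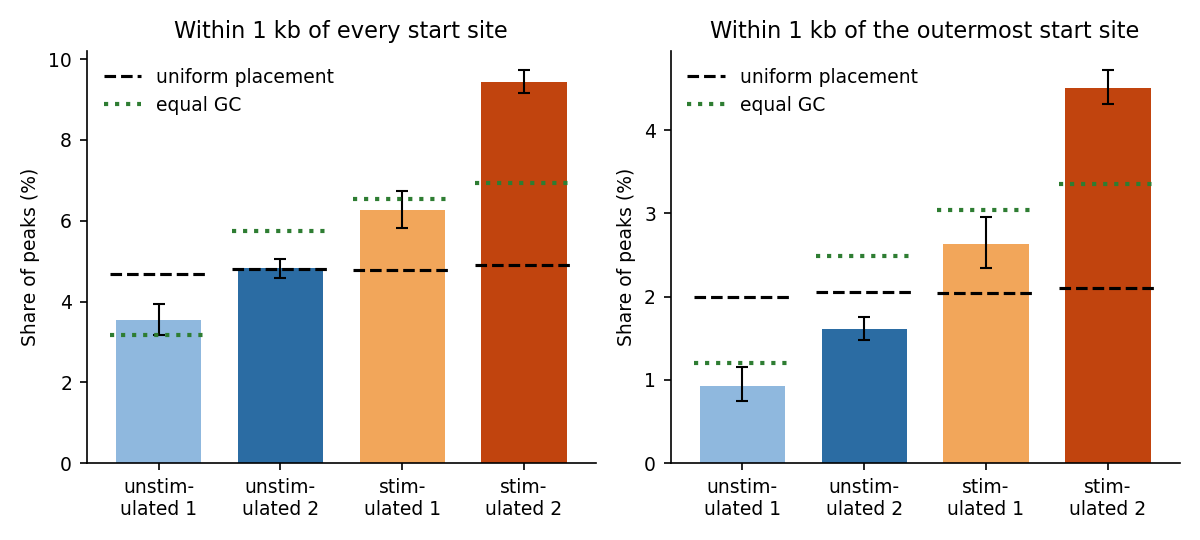
Bars give the share of autosomal peaks (%) within 1 kb of every annotated start site (left) or of the outermost start site of each gene (right) in each list, with 95% Wilson intervals. Dashed lines give the share under uniform placement and dotted lines the share among 500 bp stretches of equal GC content. Both stimulated bars are above both unstimulated bars in both panels, and in the left panel the stimulated 1 bar of 6.25% is below its equal-GC line of 6.53%.

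Many genes have several annotated start sites, some far inside the gene, so the same values were taken with the outermost start of each gene alone. The separation was wider there. Peaks within 1 kb of a gene start numbered 79, 524, 284 and 1823, and the observed-to-expected ratio was 0.468, 0.784, 1.29 and 2.14. The mean ratio was 0.626 ± 0.224 (SD, n = 2) in unstimulated and 1.72 ± 0.606 (SD, n = 2) in stimulated muscle, a difference of 1.09 (p = 0.333, exact permutation test). Without unstimulated 1 the difference was 0.93.

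Coverage by peaks around gene starts had opposite shapes in unstimulated 1 and stimulated 2. At the gene start itself the share of genes covered by a peak was 0.381, 0.878, 1.33 and 2.23 times the share of autosomal bases covered. Between 100 and 1000 bp downstream the ratio was 0.316, 0.857, 1.49 and 2.93, and between 1000 and 100 bp upstream it was 0.466, 0.741, 1.22 and 1.94. In both stimulated lists the highest coverage lay 400 bp downstream of the start, at 1.59 and 3.16 times the autosomal mean. Unstimulated 1 had its lowest coverage, 0.191 times the mean, 300 bp downstream, whereas unstimulated 2 had its lowest, 0.680 times, 800 bp upstream. From 3000 to 5000 bp downstream the ratio was 0.847, 1.02, 1.13 and 1.55, so that coverage in stimulated 2 was above the autosomal mean over the whole stretch shown.

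**Figure D2:**
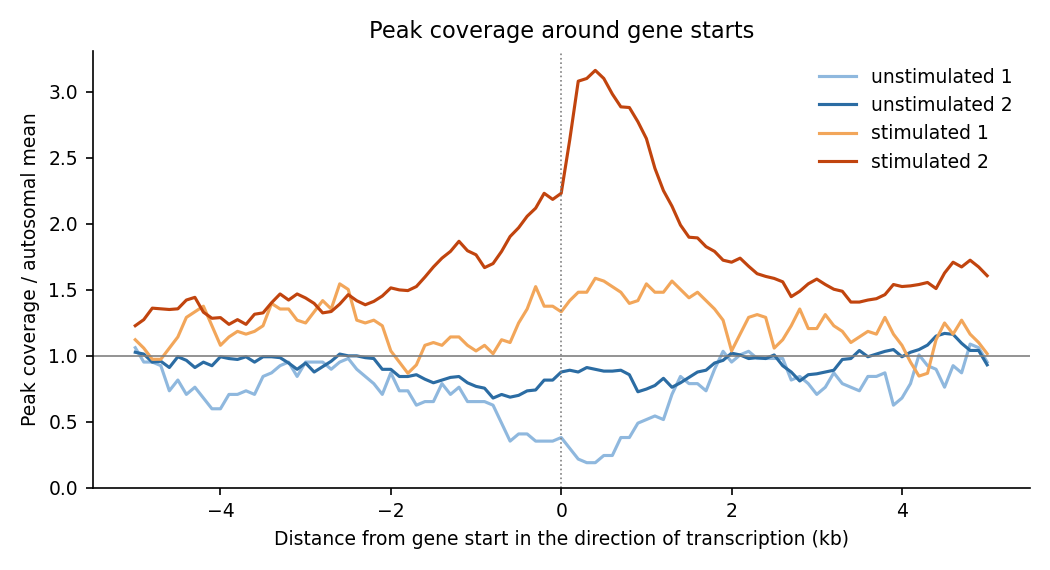
Lines give, for each list, the share of gene starts covered by a peak at each distance (kb, in the direction of transcription) divided by the share of autosomal bases covered. Stimulated 2 reaches 3.16 and stimulated 1 reaches 1.59 at 400 bp downstream, and unstimulated 1 falls to 0.191 at 300 bp downstream.

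Promoter peaks of both stimulated lists lay farther downstream of the nearest start site than those of both unstimulated lists. The midpoint lay at a median of -139, 35, 73 and 87 bp from the nearest start site, where negative values are upstream. The midpoint was downstream in 45.3%, 52.2%, 53.6% and 55.6% of promoter peaks. The mean was 48.8% ± 4.88 (SD, n = 2) in unstimulated and 54.6% ± 1.47 (SD, n = 2) in stimulated muscle (p = 0.333, exact permutation test). Without unstimulated 1 the difference was 2.37 percentage points. The groups overlapped in downstream share (p = 0.667, exact permutation test) with a window of 500 bp, at a −log10 p of 2.5 or more and at equal list length. Peaks at gene starts showed the same order with downstream shares of 40.5%, 53.1%, 57.0% and 61.5%. A start site lay inside 59, 414, 178 and 1171 promoter peaks, or 19.7%, 26.4%, 26.4% and 30.7% of them.

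Promoter peaks were close in strength to the other peaks of their list. Their median fold enrichment over background was 2.239, 2.090, 2.256 and 2.099, against 2.248, 2.086, 2.270 and 2.087 for the other autosomal peaks of the same list. They were wider, with a median width of 443.5, 473, 464.5 and 552 bp against 372, 414, 350 and 442 bp elsewhere. A wider peak touches a promoter window more easily, and the part of this selection in the widths was not tested. A −log10 p of at least 3, which equals the cutoff the paper states for peak calling, was reached by 35, 50, 105 and 143 promoter peaks. These were 11.7%, 3.18%, 15.6% and 3.75% of promoter peaks, close to the 12.1%, 2.78%, 17.5% and 3.09% of the other peaks. When each list was cut into 4 equal parts by −log10 p, the promoter share in stimulated 2 went from 10.9% among the strongest peaks to 7.93% among the weakest. In stimulated 1 it was 5.53% among the strongest and 7.83% among the weakest, so that strength and promoter location had no common order in the stimulated lists.

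Promoter peaks were also richer in GC in the stimulated lists. The median GC content of promoter peaks was 39.8%, 48.7%, 50.7% and 51.0%, and that of the other autosomal peaks was 38.0%, 43.6%, 44.2% and 44.1%. The mean of the promoter medians was 44.3% ± 6.26 (SD, n = 2) in unstimulated and 50.9% ± 0.186 (SD, n = 2) in stimulated muscle (p = 0.333, exact permutation test). Most of this difference came with unstimulated 1, without which it was 2.17 percentage points. Because promoters are rich in GC, the expected share was also taken from 500 bp stretches of the autosomes with the GC content of each peak, in bins of 5 percentage points. It was 3.17%, 5.74%, 6.53% and 6.94%. The observed-to-expected ratio at equal GC was 1.12, 0.839, 0.958 and 1.36, and the groups overlapped (difference 0.18, p = 0.667, exact permutation test). At gene starts alone the ratio at equal GC was 0.771, 0.645, 0.867 and 1.34, with both stimulated lists above both unstimulated lists (difference 0.40, p = 0.333, exact permutation test). At equal GC only stimulated 2 was above 1 at gene starts, and the part of GC content in the other differences was not tested further.

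**Figure D3:**
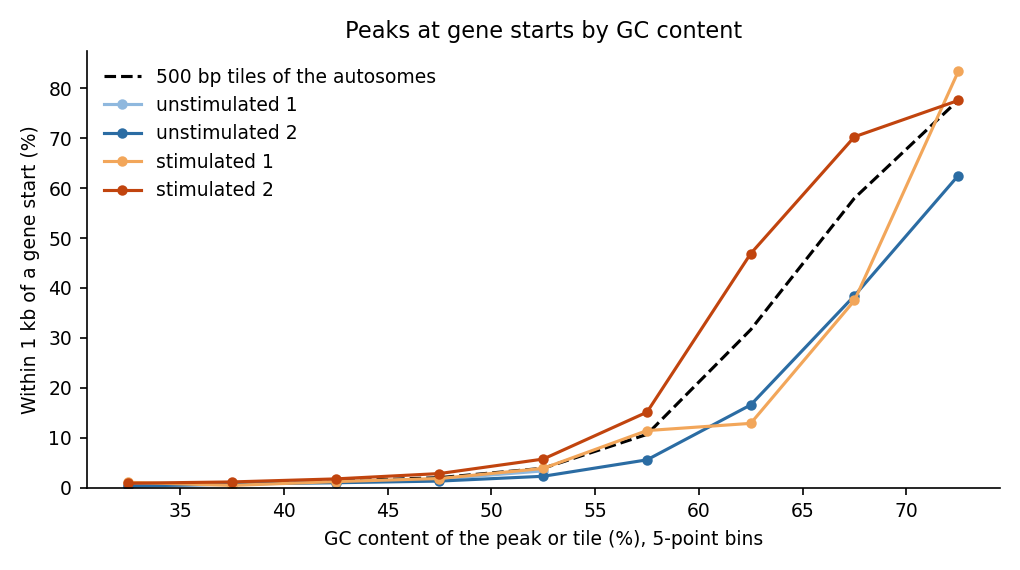
Points give the share of peaks (%) within 1 kb of a gene start by the GC content of the peak (%, bins of 5 points with at least 20 peaks), and the dashed line gives the share of all 500 bp stretches of the autosomes. Between 60% and 65% GC the share was 46.9% in stimulated 2, 12.9% in stimulated 1 and 16.6% in unstimulated 2, against 31.7% of stretches.

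The promoters of the 20807 genes were divided by CpG content around the gene start into 10423 CpG-rich, 3829 intermediate and 6555 CpG-poor promoters. CpG-rich promoters hold a stretch of 500 bp with a CpG ratio above 0.75 and a GC content above 55%, and CpG-poor promoters hold no stretch with a CpG ratio above 0.48. At CpG-rich gene starts the observed-to-expected ratio was 0.428, 0.612, 1.38 and 3.07. At intermediate gene starts it was 0.500, 0.964, 1.32 and 1.94. At CpG-poor gene starts it was 0.503, 0.934, 1.14 and 0.933, and the groups did not separate. The difference between conditions was 1.70 at CpG-rich starts (p = 0.333, exact permutation test) and 0.32 at CpG-poor starts (p = 0.667, exact permutation test). Without unstimulated 1 the differences were 1.61 and 0.10. Over all promoter peaks each peak was given the CpG class of the nearest start site, internal start sites included, of which 41.8% of 90262 were CpG-rich. By this classification 12.7%, 16.6%, 26.6% and 38.7% of promoter peaks lay at a CpG-rich start site, with means of 14.6% ± 2.80 and 32.6% ± 8.56 (SD, n = 2 each; p = 0.333, exact permutation test). A peak lay at 38, 220, 162 and 1384 CpG-rich gene starts, or 0.365%, 2.11%, 1.55% and 13.3% of them, against 0.394%, 2.65%, 1.45% and 9.49% of all gene starts. By this count stimulated 2 stood above all genes, whereas stimulated 1 was close to them.

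**Figure D4:**
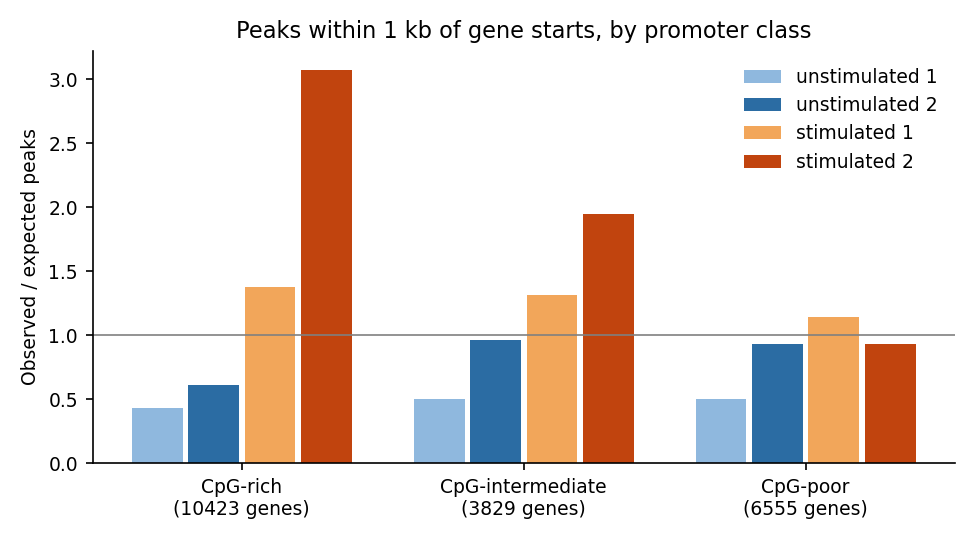
Bars give the ratio of observed to expected peaks within 1 kb of the gene start for the CpG-rich, intermediate and CpG-poor promoters in each list, and the grey line marks uniform placement. At CpG-rich starts the stimulated bars reach 1.38 and 3.07 and the unstimulated bars 0.428 and 0.612, whereas at CpG-poor starts stimulated 2 (0.933) and unstimulated 2 (0.934) are level.

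Short motifs in the 250 bases upstream of the gene start were counted for the genes with a peak at the gene start. The Sp1 box was present on either strand in 39.6% of 20802 autosomal genes, and in 28.0%, 34.2%, 40.5% and 53.6% of the 82, 552, 301 and 1975 genes with a peak at the gene start. The TATA box was present in 11.6% of all genes and in 11.0%, 12.3%, 9.30% and 6.68% of those with a peak. The cyclic AMP response element was rare, with 1.93% of all genes and 2 of 82, 11 of 552, 8 of 301 and 59 of 1975 genes with a peak (2.44%, 1.99%, 2.66% and 2.99%). The AP-1 site TGANTCA was present in 6.00% of all genes and in 9.76%, 6.52%, 3.32% and 4.30% of those with a peak. The CCAAT box had 35.5% in all genes and 46.3%, 33.2%, 34.9% and 33.5% in genes with a peak. The CArG box, to which serum response factor (SRF) binds, was present in 1.25% of all genes and in 1.22%, 1.09%, 1.66% and 1.27% of genes with a peak. Genes with a peak in stimulated 2 thus carried the GC-rich Sp1 box more often than all genes, and the CArG box about as often. They carried the TATA box and the AP-1 site less often. Of these 1975 genes 1384 had a CpG-rich gene start, against 10423 of all 20807 genes. The motifs were not counted within a CpG class, so the part of CpG content in these shares was not tested.

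At the level of genes the lists overlapped in size. A promoter peak was found at 299, 1532, 682 and 3563 of the 20807 genes, which is 1.44%, 7.36%, 3.28% and 17.1%. Stimulated 1 marked fewer genes than unstimulated 2, and the means of 4.40% ± 4.19 and 10.2% ± 9.79 (SD, n = 2 each) differed with p = 0.667 (exact permutation test). Lists with the same replicate number were closer in length, although the labels do not say whether they share mice, and the stimulated list marked 1.84 percentage points more genes than the unstimulated list for number 1 and 9.76 for number 2. These 4 shares are the background for each gene class below.

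Immediate early genes, such as those encoding AP-1 subunits and Egr family factors, held promoter peaks mainly in stimulated muscle. Of 46 autosomal genes of this class, 0, 3, 5 and 17 had a promoter peak, or 0%, 6.52%, 10.9% and 37.0%. The observed-to-expected ratio was 0, 1.13, 5.70 and 6.21, with both stimulated lists above both unstimulated lists, but the values of 3 lists rest on 5 peaks or fewer. The 3 genes in unstimulated 2 were Egr1, Egr2 and Fos, and the 5 in stimulated 1 were Dusp1, Ier2, Ier5, Junb and Jund. Jund and Ier2 were the members with a peak in both stimulated lists. Several of the best known members were left out by the width limit, since their peaks were wider than 2000 bp. With peaks of any width, an alternative for gene classes added after the data were seen, the class counts were 0, 3, 10 and 23 of 46, or 0%, 6.52%, 21.7% and 50.0%, against 1.45%, 7.39%, 3.33% and 17.4% of all genes. The 5 genes that this added to stimulated 1 were Egr1, Fos, Gadd45g, Jun and Nr4a1, and 8 genes of the class then had a promoter peak in both stimulated lists.

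SRF targets, which include several immediate early genes as well as actin and contractile genes, had a promoter peak at 0, 8, 4 and 12 of 32 genes, with ratios of 0, 3.70, 5.67 and 5.86. Actb, encoding the cytoplasmic beta-actin, and Ier2 had a peak in both stimulated lists, but Actb also had a peak in unstimulated 2. The Actb peaks lay away from the gene start, near internal start sites. Their midpoints were 2094 bp downstream in unstimulated 2, 3762 bp in stimulated 1 and, for 1 of 2 peaks, 4715 bp in stimulated 2. This last peak lay past the 3′ end of the gene. With gene starts only, Actb had a peak in 0 lists. With peaks of any width 0, 9, 7 and 14 of 32 SRF targets were marked, with ratios of 0, 4.14, 9.83 and 7.98. These were 0%, 28.1%, 21.9% and 43.8% of the class, against 1.45%, 7.39%, 3.33% and 17.4% of all genes. Egr1, Fos and Nr4a1 then joined Actb and Ier2 in both stimulated lists. Of these 5 genes, 2 had no promoter peak in unstimulated muscle. With peaks of at most 2000 bp, sarcomere genes had peaks at 1, 17, 7 and 19 of 69 genes, with ratios of 0.611, 2.80, 4.24 and 2.95. Genes of calcium handling and excitation-contraction coupling had peaks at 1, 6, 6 and 15 of 39 genes, with ratios of 1.10, 1.94, 5.05 and 4.24. In unstimulated 2 the ratios of 3.70 for SRF targets and 2.80 for sarcomere genes thus stood beside 1.13 for immediate early genes. Muscle classes exceeded the share of all genes in unstimulated 2, stimulated 1 and stimulated 2, with 24.6%, 10.1% and 27.5% of sarcomere genes marked. Promoter windows were also longer, with 5.62 kb per sarcomere gene and 5.53 kb per calcium handling gene against 4.53 kb over all genes.

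Ribosomal protein genes, a class of broadly expressed genes, had a ratio above 1 in stimulated 2 only. Ribosomal protein genes had peaks at 0, 2, 1 and 11 of 79 genes (ratios 0, 0.455, 0.684 and 2.34). Mitochondrial ribosomal protein genes had peaks at 2, 0, 1 and 14 of 75 genes (1.88, 0, 0.712 and 2.77). Genes of oxidative phosphorylation had peaks at 1, 4, 2 and 11 of 83 genes (0.771, 0.796, 1.20 and 1.89), and proteasome genes at 0, 1, 3 and 9 of 47 (0, 0.272, 2.45 and 1.91). In stimulated 2, however, the ribosomal protein and oxidative phosphorylation classes were marked at 13.9% and 13.3% of genes, below the 17.1% of all genes, with promoter windows of 3.49 and 3.69 kb per gene against 4.53 kb over all genes. Genes of glycolysis and glycogen metabolism had peaks at 0, 3, 1 and 9 of 33 genes (0, 0.875, 0.884 and 2.51). Housekeeping genes had peaks at 0, 4, 4 and 7 of 29 genes (0, 1.98, 4.80 and 2.49), and heat shock and chaperone genes at 0, 4, 3 and 6 of 38 (0, 1.37, 3.05 and 1.60). In the latter classes the shorter stimulated list had the higher ratio, from 4 peaks or fewer. Solute carriers had peaks at 1, 30, 13 and 69 of 321 genes (0.145, 1.15, 1.57 and 2.30), and genes of divergent pairs, whose starts lie within 1000 bp of each other on opposite strands, at 19, 115, 53 and 300 of 1450 (0.688, 1.06, 1.42 and 2.11).

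Chemosensory receptor genes, of which 0% of the olfactory and 0.307% of the vomeronasal class had a CpG-rich promoter, had the opposite order. Olfactory receptor genes had promoter peaks at 16, 47, 15 and 32 of 1087 genes, with ratios of 0.989, 0.702, 0.689 and 0.388. Vomeronasal receptor genes had peaks at 5, 21, 4 and 6 of 326 genes, with ratios of 1.29, 1.29, 0.772 and 0.304. In these 2 classes both stimulated lists lay below both unstimulated lists, narrowly so for olfactory receptors, whereas both lay above in 13 of the 20 classes examined. Over all protein-coding genes both also lay above, with ratios of 0.757, 1.00, 1.31 and 1.92. Among the 13, glycolysis separated narrowly, with 0.884 in stimulated 1, from 1 peak, against 0.875 in unstimulated 2. Keratin genes had peaks at 0, 6, 1 and 4 of 106, and genes of interleukins, chemokines and their receptors at 0, 7, 0 and 7 of 96. Zinc finger genes of the Zfp series had peaks at 12, 27, 13 and 50 of 383 genes (2.21, 1.08, 1.53 and 1.60), Hox genes at 0, 2, 1 and 8 of 39 and replication-dependent histone genes at 1, 0, 0 and 7 of 67.

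**Figure D5:**
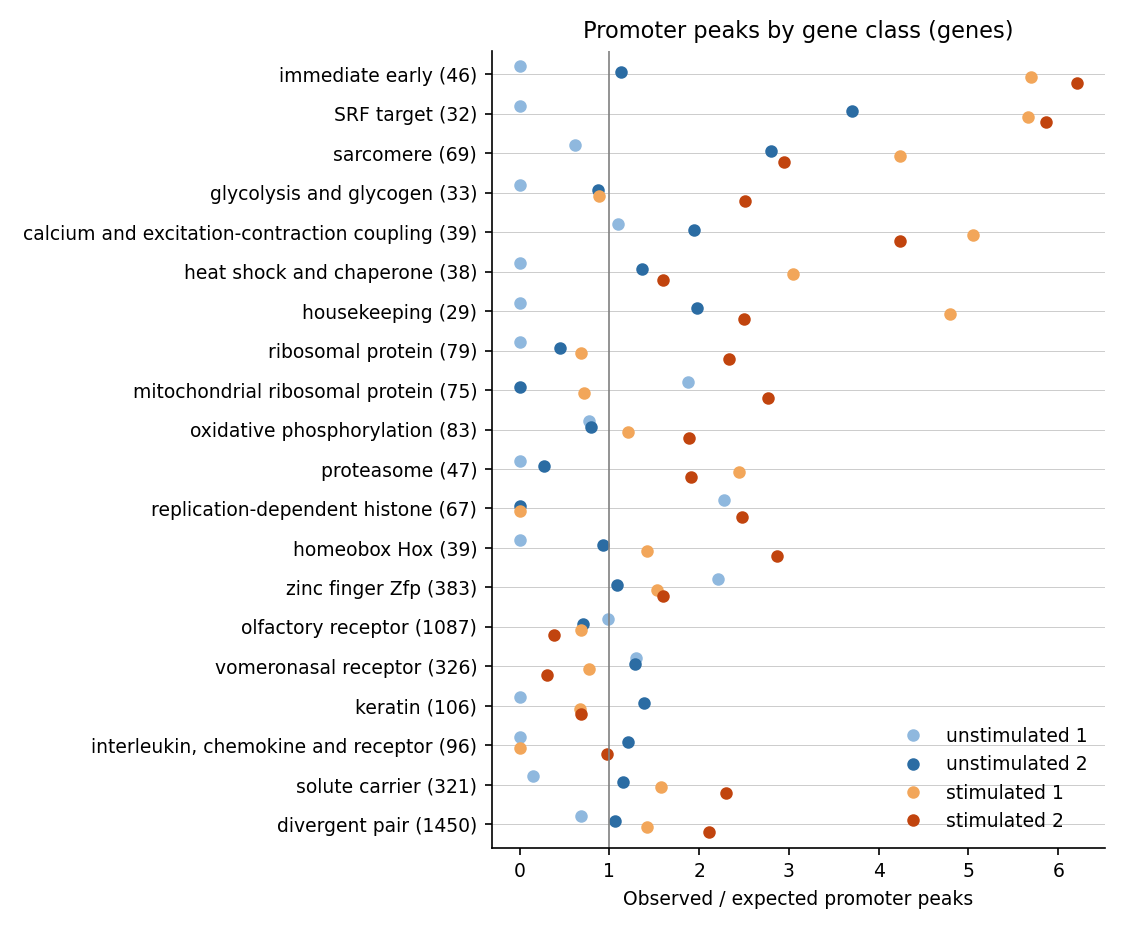
Points give the ratio of observed to expected promoter peaks for 20 gene classes in each list, with the number of autosomal genes in brackets and a grey line at uniform placement. Immediate early genes lie at 5.70 and 6.21 in the stimulated lists and at 0 and 1.13 in the unstimulated lists, and olfactory receptors lie at 0.689 and 0.388 against 0.989 and 0.702.

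Few genes recurred between lists. Of 5307 genes with a promoter peak in any list, 4593 (86.5%) had it in 1 list, 664 in 2, 45 in 3 and 5 (0.024% of all genes) in all 4. Stimulated 1 and stimulated 2 shared 197 genes, which is 28.9% of the former and 5.53% of the latter. Among all genes 17.1% were marked in stimulated 2, so that genes of stimulated 1 were marked there 1.69 times as often as genes in general. Unstimulated 1 and unstimulated 2 shared 36 genes, 12.0% and 2.35% of each, at 1.64 times the general rate. Pairs of lists from different conditions had ratios between 1.43 and 2.24, a range that holds both values within a condition. A promoter peak itself overlapped a promoter peak of the other list in 36 cases for stimulated 1 (5.34%) and in 12 cases for unstimulated 1 (4.00%). Of the other autosomal peaks of these lists, 3.35% and 2.63% overlapped a peak of the second list of the same condition.

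A promoter peak in both stimulated and neither unstimulated list was found at 159 genes (0.764% of all), and the reverse at 19 genes (0.0913% of all). The stimulated lists were the longer ones within each replicate number. At equal list length both stimulated lists shared 49 genes and both unstimulated lists shared 19, against 197 and 36 at full length. The part of list length in the counts of genes marked in 1 condition only was not tested. At 31 of the 159 genes (19.5%) and at 5 of the 19 genes (26.3%) the peaks of both lists overlapped, and at the others they lay at separate places of the same gene. Genes of both sets had more annotated start sites than genes in general, with a median of 7 and 9 against 3. A gene was counted when a peak touched any of its start sites, so genes with more sites are counted more easily. CpG-rich promoters made up 69.8% of the 159 and 68.4% of the 19 genes, against 50.1% of all genes. The part of the number of start sites in these shares was not tested.

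Genes with a promoter peak in both stimulated lists only were ordered by the worse of their 2 ranks in fold enrichment. Dpm1, which encodes a mannosyltransferase subunit, came first, with a fold enrichment of 2.76 in stimulated 1 and rank 741 in stimulated 2, with midpoints 8086 and 11903 bp into the gene, at internal start sites. Jund (chr8:70698949-70700616, plus strand) came next and had peaks that overlapped between the lists. Its peaks lay at chr8:70699340-70700440 in stimulated 1, with a fold enrichment of 2.46, and at chr8:70699284-70701010 in stimulated 2, with a fold enrichment of 3.07 and rank 32 of the list. Both midpoints were downstream of the start site, at 941 and 1198 bp, inside the gene and outside the upstream stretch printed above. Ndrg2, an N-myc downstream regulated gene, had peaks at -541 bp in stimulated 1 and -41 bp in stimulated 2 from its start, where negative values are upstream, with fold enrichments of 2.65 and 2.30. Slc25a4, encoding the adenine nucleotide translocase of muscle mitochondria, had peaks on either side of its start, at -914 bp in stimulated 1 (2.43) and 1236 bp in stimulated 2 (2.38). Ier2 had a peak 952 bp downstream in stimulated 1 (2.30) and a peak at -1479 bp in stimulated 2 (2.28). In Tbc1d9b, Tns1 and Ube2r2, which also ranked among the first 10, the peaks lay far inside the gene, at internal start sites. The midpoints in stimulated 1 and 2 were 17899 and 4504 bp into Tbc1d9b and 48012 and 52422 bp into Ube2r2. In Tns1 they were 107234 bp in stimulated 1 and, for 1 of its 3 peaks, 128308 bp in stimulated 2. The rest of the first 10 were Brd9, Crb3 and Fam214b, with fold enrichments between 2.30 and 2.61.

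Among the genes marked in all 4 lists, Coil and Gm9758 had peaks that shared bases in all of them. The Coil peaks extended from chr11:88969083-88970260 in the widest case, with fold enrichments of 1.59, 1.69, 1.71 and 1.73, which ranked 9075, 32694, 10849 and 40664, close to the bottom of each list. Their midpoints lay between -687 and -572 bp from the gene start. The Gm9758 peaks had fold enrichments of 2.42, 2.73, 2.29 and 2.73. In Kdm2a, a histone demethylase gene, and Naa15, an acetyltransferase subunit gene, the peaks of the 4 lists lay at different start sites of genes with 13 and 9 start sites.

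Gm9758 and Gm17019 belong to a stretch of chromosome 5 between 14 and 16 Mb with copies of related genes, including the Speer family. This stretch held 4, 9, 4 and 2 promoter peaks. Among the genes with a peak in both unstimulated and neither stimulated list, Gm17019 had the best rank, with fold enrichments of 2.48 and 2.29 at its start. Its upstream stretch was 96.4% identical to that of Gm10354, which had a peak in unstimulated 1, unstimulated 2 and stimulated 2. Reads from such copies can be split or lost when reads with several matches are removed, so calls at these genes are uncertain. Gm21190 of the same stretch, with a fold enrichment of 3.37 in unstimulated 1, also had a peak wider than 2000 bp in stimulated 1. Glud1, encoding mitochondrial glutamate dehydrogenase, and Dcun1d1 followed Gm17019 in rank, and their peaks lay more than 15 kb inside the gene at internal start sites.

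The promoter peak of highest fold enrichment was at Gm21190 in unstimulated 1 (3.37), at Glud1 in unstimulated 2 (2.86), at Speer4e in stimulated 1 (3.32) and at Ncoa1, a nuclear receptor coactivator gene, in stimulated 2 (4.85). The Ncoa1 midpoint lay 59337 bp into the gene, at -1038 bp (upstream) from an internal start site, with a GC content of 36.4%. Wdr82, which encodes a subunit of H3K4 methyltransferase complexes, had a fold enrichment of 4.34 in stimulated 2, with a midpoint 55 bp downstream of a start site and a GC content of 66.5%. Fgfr4, a fibroblast growth factor receptor gene, reached 2.99 in stimulated 1, 849 bp downstream of its start. Gjc1, a connexin gene, reached 3.23 in unstimulated 1, with the start site inside the peak. Ncoa1, Wdr82, Fgfr4 and Gjc1 each had a promoter peak in 1 of the 4 lists.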

How the data were processed

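H3S10ph was measured by ChIP-seq in 4 samples, 2 per condition. Per the study's methods and the submitters' processing notes, the authors mapped reads to mm10 with BWA, removed reads with several matches, down-sampled replicates to equal depth and called broad peaks for each sample separately, with input DNA as control (MACS2 2.1.1). The deposited lists give, for each peak, the ratio of its signal to the background (fold enrichment) and its p-value and q-value as −log10. The paper states a p-value cutoff for peak calling that equals a −log10 p of 3. Most autosomal peaks of at most 2000 bp lay below it in every list, and the reason was not tested. The −log10 q was 0 at Slc25a4 in both stimulated lists, for example, and 5.53 at Ncoa1 in stimulated 2. A gene with no call may still carry the mark, and no depth or interval of read counts can be derived.

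Overlaps of at least 1 bp, exact expected shares under uniform placement outside gaps, and GC contents were computed with pandas 2.3.3, scipy 1.17.1 and numpy 2.4.6 (Python 3.11.15) and checked on simulated lists. Figures were drawn with matplotlib 3.10.9. Starts were those of GENCODE M21. Sequences were read from the RefSeq copy of GRCm38, whose chromosome lengths equal those of mm10. Conditions were compared by an exact two-sided permutation test over 4 samples. Alternatives were other windows, overlap rules, widths, thresholds, equal list length, each replicate left out and the replicate block.

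The members and gene classes were chosen with earlier results of these data known. Named genes were those marked in all 4 lists, the 10 best ranked of both lists of 1 condition only, immediate early and SRF target genes in both lists of a condition, and the 3 strongest promoter peaks of each list. Some named genes are not reported here. Genes named with peaks wider than 2000 bp, or to make up a count of 5 or fewer, were chosen after their values were seen. The other experiments of the study were not analysed here.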

Additional observations from a re-analysis of the deposited data

Results flagged for a closer look

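Promoter peaks wider than 2000 bp lay outside the peaks analysed above and numbered 9 in stimulated 1 and 64 in stimulated 2, against 3 and 6 in the unstimulated lists, and are given here because they lay outside the width limit and were more numerous than in control muscle. They were 9 of 57 and 64 of 245 wide autosomal peaks, against 3 of 63 and 6 of 97 in unstimulated muscle. The ratio to uniform placement was 0.487, 0.712, 1.67 and 3.14 in the order unstimulated 1, unstimulated 2, stimulated 1 and stimulated 2. The genes with such a peak in both stimulated lists were Egr1, Fos, Gadd45g, Jun, Nr4a1 and Xirp1, of which 5 are immediate early genes and Xirp1 encodes a muscle protein that binds actin. Egr1, Fos and Xirp1 also had a promoter peak of at most 2000 bp in unstimulated 2. The difference in number between conditions was not tested.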

How the results depend on the processing

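The differences between conditions in promoter share, in the ratio to uniform placement, in GC content, in downstream position and in CpG-rich share kept their direction under all 13 to 15 alternatives run for each. This was fixed in advance for the replicate block and for each replicate left out, since both stimulated lists lay above both unstimulated lists. The promoter share differed by 2.08 to 5.26 percentage points and the ratio by 0.18 to 1.09, the lowest being that at equal GC content with every start site, where the groups overlapped; at gene starts, an alternative chosen after seeing the data, the difference at equal GC was 0.40. The groups also overlapped in downstream share with a window of 500 bp, with −log10 p values of 2.5 or more and at equal list length, and in median GC with −log10 p values of 3 or more. Leaving out each replicate in turn gave differences of 2.08 to 5.26 points in promoter share, 0.42 to 1.04 in the ratio, 2.17 to 11.0 points in GC content, 2.37 to 9.27 points in downstream position and 11.9 to 24.0 points in CpG-rich share. For genes with a peak it gave -1.12 to 12.7 points: without stimulated replicate 2 the direction reversed (-1.12). In the balanced design the replicate block gave the same differences by construction (3.67 points in promoter share, 0.73 in the ratio); whether equal numbers mark the same mice is not stated, and the differences within numbers 1 and 2 were 2.72 and 4.61 points in promoter share and 0.55 and 0.92 in the ratio. Over the named genes, the number of lists with a peak was the same in 189 of 288 values under the alternatives, lower in 91 and higher in 8. Counts of shared genes moved most, and cannot be had with a replicate left out. For both stimulated lists (197) they were 101 and 408 with windows of 500 and 2000 bp, 46 at gene starts only, 42 and 3 when peaks had to reach −log10 p values of 2.5 and 3, 49 at equal list length, 37 where the peaks overlapped and 10 at a reciprocal overlap of 50%. For both unstimulated lists (36) the same settings gave 20, 110, 9, 7, 2, 19, 12 and 4. The ratio to all genes was 2.55 and 3.86 at the stricter thresholds in stimulated muscle, and in unstimulated muscle it was 3.03 and 23.3 there, 4.14 at gene starts only and 2.97 at equal list length; the cause was not tested. With 2 samples per condition, the exact permutation test used here cannot give a p below 0.333.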

Other observations

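On chromosome X, left out above, the lists held 502, 18, 18 and 15 peaks in the order unstimulated 1, unstimulated 2, stimulated 1 and stimulated 2, of which 5, 0, 2 and 1 lay at a promoter of a protein-coding gene. Genes with a promoter peak had a median of 6, 6, 5 and 5 annotated start sites, against 3 for all autosomal protein-coding genes. A peak at any start site counted, so genes with more sites are counted more easily.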
